A study of Homo sapiens with 52 samples.

Results

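A group of 3 inhibitors of the histone demethylase LSD1, GSKLSD1, LSD519 and LSD690, were drawn from a transcriptome screen of small molecules in fusion-positive rhabdomyosarcoma (FP-RMS). Each compound was profiled by RNA-seq at 10 µM and at 1 µM after 6 h, which gave 6 inhibitor samples out of 44 screen samples and 52 samples in the series. They were set against 4 libraries of solvent-treated cells, 2 labelled as 0.2% and 2 as 0.1% dimethyl sulfoxide (DMSO), while the study's methods give a lower solvent level for cell culture. The cells carry the PAX3-FOXO1 fusion, and the sample titles call them RH41 while the cell line label reads RH4. The labels describe no separate cultures, so the 2 doses of a compound stood in as its replicates. P-values measure only the spread between the samples tested, which may be technical. The 2 libraries of each DMSO concentration were averaged before testing, so the spread between those libraries is left out. Changes present in every compound were called shared when all 3 compound means lay on the same side of DMSO.

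LSD1, encoded by KDM1A, is a flavin-dependent enzyme that removes methyl groups from lysine 4 of histone H3. It works in the CoREST repressor complex beside RCOR1 and the deacetylases HDAC1 and HDAC2. Zinc-finger repressors with a SNAG domain, among them SNAI1, SNAI2 and INSM1, bring the complex to DNA by docking in the active site of the enzyme. In FP-RMS the fusion protein sustains a small set of core regulatory transcription factors, including MYOD1, MYOG, SOX8 and MYCN, that hold the cells in an arrested muscle program.

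Sequencing depth and flow cell differed between the groups. GSKLSD1 had 34883259 to 36692592 reads per library, LSD519 and LSD690 had 6509419 to 10166573, and DMSO had 16772069 to 22400976. The column headers place the DMSO libraries on a pair of flow cells, LSD519 and LSD690 together on another, and GSKLSD1 on yet another, so that treatment and flow cell cannot be told apart against DMSO. A second comparison therefore used compounds of other targets on the same flow cells, also at 10 and 1 µM for 6 h. These were EZ-005, PFI-2, PFI-3, SGC0946, UNC0638 and UNC1999 for LSD519 and LSD690, and UNC-1215 for GSKLSD1, 14 reference samples in all. Bromosporin, Merck60, OJI-1, SGC-CBP30, trametinib and WT161 shared the flow cell of LSD519 and LSD690 but were left out for their labelled targets. Differences within flow cells depend on this choice. Of 10 FP-RMS marker genes 9 reached 1 TPM (transcript abundance scaled to a fixed library total), with sums of 2395 to 2855 TPM in inhibitor samples and 2776 to 2904 TPM in DMSO. CDH3 stayed under 1 TPM. Of 6 haematopoietic markers 1 reached 1 TPM and 3 were listed at 0 throughout, with sums of 0.674 to 1.57 TPM under the inhibitors and 1.20 to 2.24 TPM in DMSO. Of 6 epithelial markers 1 reached 1 TPM, with sums of 1.91 to 3.08 and 0.874 to 1.20 TPM, and the part of such cells in the results was not tested.

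A compact set of genes was higher with every LSD1 inhibitor and at both doses. The largest shared increases were in TPD52 and SYNGR2, which encode proteins of vesicle membranes and trafficking, SLAIN1, a microtubule plus-end protein, and DOPEY2, which acts in endosome to Golgi transport. No gene fell by 2-fold or more against both references. KDM1A itself did not differ in level, whereas SNAI1 rose about 2-fold.

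TPD52 stood at 10.8 and 9.72 TPM with GSKLSD1 (10 µM first, then 1 µM), 7.68 and 9.69 TPM with LSD519, and 9.73 and 9.26 TPM with LSD690, against 0.720, 0.824, 0.883 and 1.14 TPM in the 4 DMSO libraries. The groups did not overlap, and the lowest DMSO library held 21 reads of this gene. Fewer than 2 DMSO libraries reached 1 TPM, so TPD52 entered the test against DMSO only through the inhibitor samples. On the log2(TPM + 1) scale used for all differences here, which understates changes of genes near 1 TPM, TPD52 was higher by 2.47 ± 0.12 (SE; limma adjusted p = 0.00013) against DMSO and by 2.17 ± 0.10 against the same-flow-cell compounds, which reached at most 1.72 TPM. SYNGR2 (hg19 chr17:76164626-76169009) stood at 79.6 and 64.4 TPM with GSKLSD1, 69.2 and 74.4 TPM with LSD519, and 74.6 and 70.0 TPM with LSD690, against 13.6, 14.9, 16.0 and 15.1 TPM in DMSO. Its mean was 72.0 ± 5.28 TPM (SD, n = 6), and every inhibitor sample lay above every DMSO and reference sample. The difference was 2.20 ± 0.09 against DMSO (limma adjusted p = 7.6e-05) and 2.39 ± 0.09 within flow cells (adjusted p = 6.8e-09).

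SLAIN1 (chr13:78271989-78338377) stood at 9.92 and 10.2 TPM with GSKLSD1, 12.7 and 10.4 TPM with LSD519, and 14.8 and 12.3 TPM with LSD690, against 1.65, 1.32, 1.37 and 1.21 TPM in DMSO. It differed by 2.40 ± 0.12 from DMSO and by 2.43 ± 0.10 within flow cells. DOPEY2 (chr21:37529080-37666572) stood at 13.9 and 14.2 TPM, 12.1 and 12.6 TPM, and 15 and 12.3 TPM in the same order, against 2.54, 2.58, 2.89 and 2.48 TPM in DMSO, a difference of 1.98 ± 0.10. Neither gene overlapped its DMSO or reference samples.

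COBL, an actin nucleator, ranged from 27.2 to 33.8 TPM under the inhibitors and from 6.69 to 9.42 TPM in DMSO, a difference of 1.76 ± 0.11. KRT80, a keratin, ranged from 52.7 to 85.7 TPM against 19.3 to 25.5 TPM, a difference of 1.66 ± 0.15, and from 7.73 to 25.6 TPM in the references of the larger flow cell. TMEM170B rose by 1.83 ± 0.09 and CRACR2B, a regulator of store-operated calcium channels, by 1.86 ± 0.21. TM7SF2, a sterol reductase of cholesterol synthesis, rose by 1.70 ± 0.21 from DMSO, but its inhibitor samples (22.2 to 44.1 TPM) overlapped the references, which reached 24.3 TPM. VWA5B2 completed the 10 largest shared increases with 1.73 ± 0.12, and all 10 also passed the test within flow cells.

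**Figure D1:**
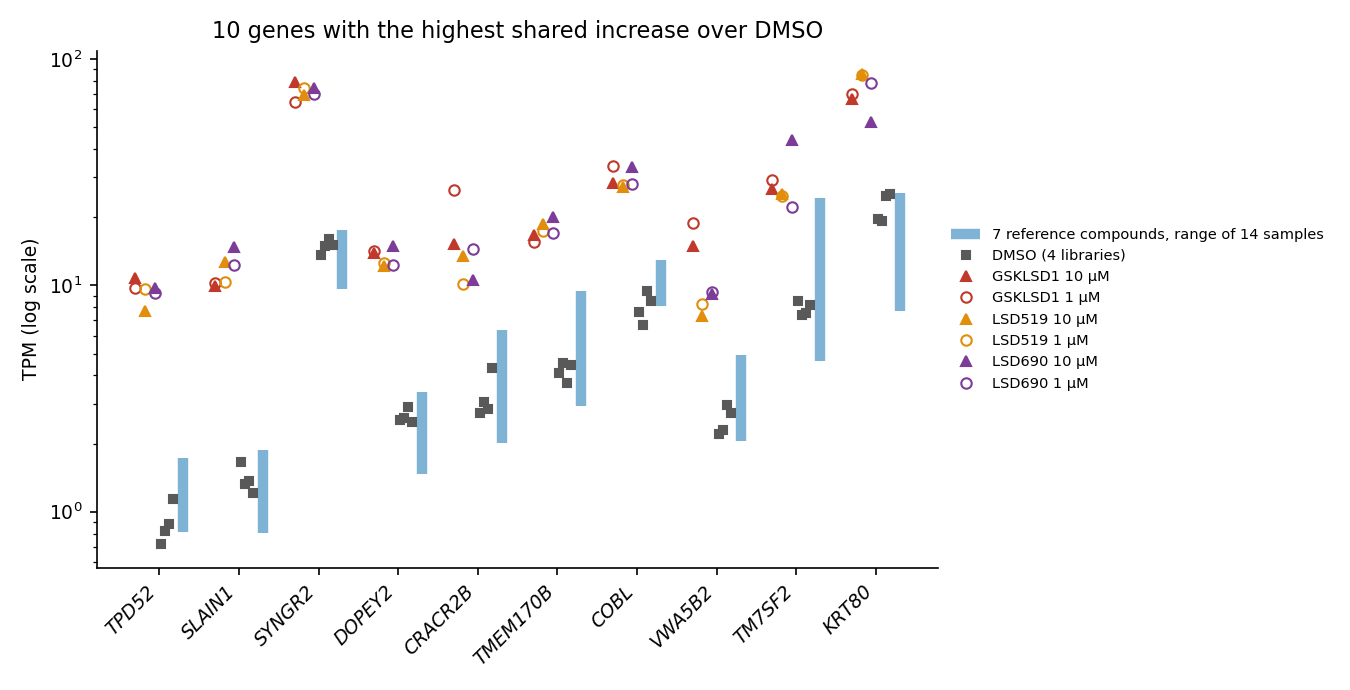
TPM on a log axis of the 10 genes with the largest shared increase, with 1 point for each inhibitor sample and DMSO library and a bar for the range of the 14 reference samples. All 6 inhibitor points lie above the DMSO points for each gene, as SYNGR2 shows with 64.4 to 79.6 TPM against 13.6 to 16.0 TPM.

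RefSeq promoter sequences are shown for 3 of these genes, because SNAI1-type factors bind E-boxes. Which factors bind these windows was not tested, and the paper also reports a myogenic E-box at HDAC2 sites in rhabdomyosarcoma cells. The windows (GRCh38.p14, plus strand) are the 250 bases before the gene start, and bases after it were not searched. The E-box searched was CAGGTG on either strand, and capitals mark a match.
SYNGR2, chr17:78168295-78168544: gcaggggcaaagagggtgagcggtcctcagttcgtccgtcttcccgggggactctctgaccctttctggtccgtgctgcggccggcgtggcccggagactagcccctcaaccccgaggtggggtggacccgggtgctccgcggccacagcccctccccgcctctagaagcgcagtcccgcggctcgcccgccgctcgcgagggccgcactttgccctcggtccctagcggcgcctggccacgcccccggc
SLAIN1, chr13:77697437-77697686: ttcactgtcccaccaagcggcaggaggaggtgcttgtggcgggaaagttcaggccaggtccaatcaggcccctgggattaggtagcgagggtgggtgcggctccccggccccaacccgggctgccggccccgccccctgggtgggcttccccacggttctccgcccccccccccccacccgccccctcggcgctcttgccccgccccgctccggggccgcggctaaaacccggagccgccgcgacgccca
TM7SF2, chr11:65111622-65111871: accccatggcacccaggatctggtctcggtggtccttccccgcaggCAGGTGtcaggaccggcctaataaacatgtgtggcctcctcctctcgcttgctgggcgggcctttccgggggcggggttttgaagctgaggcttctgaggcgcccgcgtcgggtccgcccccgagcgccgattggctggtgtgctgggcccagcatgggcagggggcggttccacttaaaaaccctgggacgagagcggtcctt
The SYNGR2 and SLAIN1 windows held no match, and TM7SF2 held 1. Of the 10 genes with the largest increase 5 had a promoter in the table, and TM7SF2 was the 1 with a match. Of the 74 genes defined in the next paragraph, 50 had a promoter in the table and 16 of these (32.0%) held the motif, against 15.03% of 10205 tested genes and 17.5% of 27305 promoters. Their windows also had more G and C (median 69.0% against 65.2% and 58.0%), and no test was made.

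Across 14405 genes, 1943 (13.5%) were called against DMSO at an adjusted p below 0.05, 1432 higher (9.94%) and 511 lower (3.55%). With samples scaled by median ratios the share of calls that were higher was 54.4% in place of 73.7%. Within flow cells 1346 of 14921 genes (9.02%) were called, 1184 higher (7.94%) and 162 lower (1.09%), and with the same scaling the higher share was 75.8% in place of 88.0%. Among the 1943 genes, 1906 (98.1%) moved the same way with all 3 compounds, and 54.4% of all genes tested did. A call on the mean of the compounds favours a shared sign, and the compounds share their DMSO libraries, so nothing is read from the gap. In both comparisons 815 of 14370 genes (5.67%) were called in the same direction. The 776 that were higher in both were 54.2% of those higher than DMSO, and the 39 that were lower in both were 7.63% of those lower than DMSO. The count against DMSO was 1275 without LSD519 at 10 µM, 1284 without LSD519 at 1 µM and 3122 without LSD690 at 1 µM. It was 4937 with the 4 DMSO libraries as separate samples, 3616 with voom weights on whole reads (51.2% of them higher) and 1123 with all 44 screen samples in the fit. The count within flow cells was 869 without GSKLSD1 at 1 µM, 798 without UNC-1215 at 10 µM and 2529 without UNC0638.

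A set of 74 genes was at least 2-fold higher in both comparisons, after 3 small RNA names were set aside. These genes were chosen by the differences just given, so their size and calls are a description. Most had low levels in DMSO, with a median of 2.73 TPM with the small RNA names included, beside 22.5 TPM for all genes tested. For 14 of the 74, TPD52 and IL34 among them, fewer than 2 DMSO libraries reached 1 TPM. These 14 entered the test against DMSO only through the inhibitor samples. The median difference from DMSO was 1.40 for GSKLSD1, 1.28 for LSD519 and 1.28 for LSD690, and per sample it ranged from 1.26 to 1.44. Besides the genes above, the set held RASSF4, a RAS-association protein (240.8 to 312.7 TPM against 110.8 to 119 TPM in DMSO), and IL34, a cytokine ligand of CSF1R (1.94 to 3.58 TPM against 0.0856 to 0.346 TPM). It also held EXOC6, a subunit of the exocyst that tethers secretory vesicles (11.8 to 13.5 TPM against 4.31 to 4.73 TPM), and FOXD3, a forkhead factor (5.55 to 7.79 TPM against 2.05 to 3.45 TPM). These, and the 10 genes listed next, were named after their values were seen.

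The choice of the set nearly fixes that every inhibitor sample lies above every DMSO library, which held for all 74 genes (17.2% of all genes tested), and nothing is read from it. For 10 of them, KRTAP4-1, KRT80, IL34, RNF186, EXOC6, MAP3K7CL, C1QTNF1, RASSF4, SNAI1 and FOXD3, every inhibitor sample lay above all 38 other screen samples (0.361% of all genes tested). DMSO and the references that chose the set are 18 of the 38, so this too is a description. Over the 74 genes the highest other sample was an MC1568 sample for 36 and a LAQ824 sample for 20, both compounds labelled as HDAC inhibitors. The median difference from the same DMSO libraries was 1.296 for MC1568 (labelled an HDAC4 and HDAC5 inhibitor), 1.22 for LAQ824 (HDAC) and 0.78 for WT161 (HDAC6), with 54, 42 and 31 of the 74 genes (73.0%, 56.8% and 41.9%) at 2-fold or more. Of all genes tested 8.64%, 13.5% and 5.97% were at 2-fold or more with these compounds, and the median over all genes was 0.24, 0.00 and 0.01. Merck60, labelled an HDAC1 and HDAC2 inhibitor, gave 0.19 with 0 genes at 2-fold, and GSKJ4, a JMJD3 and UTX inhibitor, gave 0.13 with 0. OJI-1, used by the paper against HDAC8, gave -0.10 with 0. Of all genes tested 0.63%, 0.53% and 0.29% were at 2-fold or more with Merck60, GSKJ4 and OJI-1. LAQ824 and GSKJ4 were given at 5 and 0.5 µM, so their doses differ from those of the LSD1 inhibitors. MC1568 and LAQ824 shared a flow cell with DMSO libraries, whereas WT161, Merck60 and OJI-1 shared that of LSD519 and LSD690.

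Single genes of the set stood at different levels with LSD1 and HDAC inhibitors. Mean SYNGR2 was 57.9 TPM with MC1568, 84.7 TPM with LAQ824, 60.4 TPM with WT161 and 18.2 TPM with Merck60, beside 72.0 TPM with the LSD1 inhibitors. KRT80, by contrast, was at 6.95 TPM with LAQ824 and 12.4 TPM with WT161, below its DMSO level, and at 47.0 TPM with MC1568. SNAI1 was at 134 TPM with LAQ824 and 137 TPM with WT161, below its DMSO range of 142 to 160 TPM, and at 199.5 TPM with MC1568. These differences between compound classes were not tested.

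**Figure D2:**
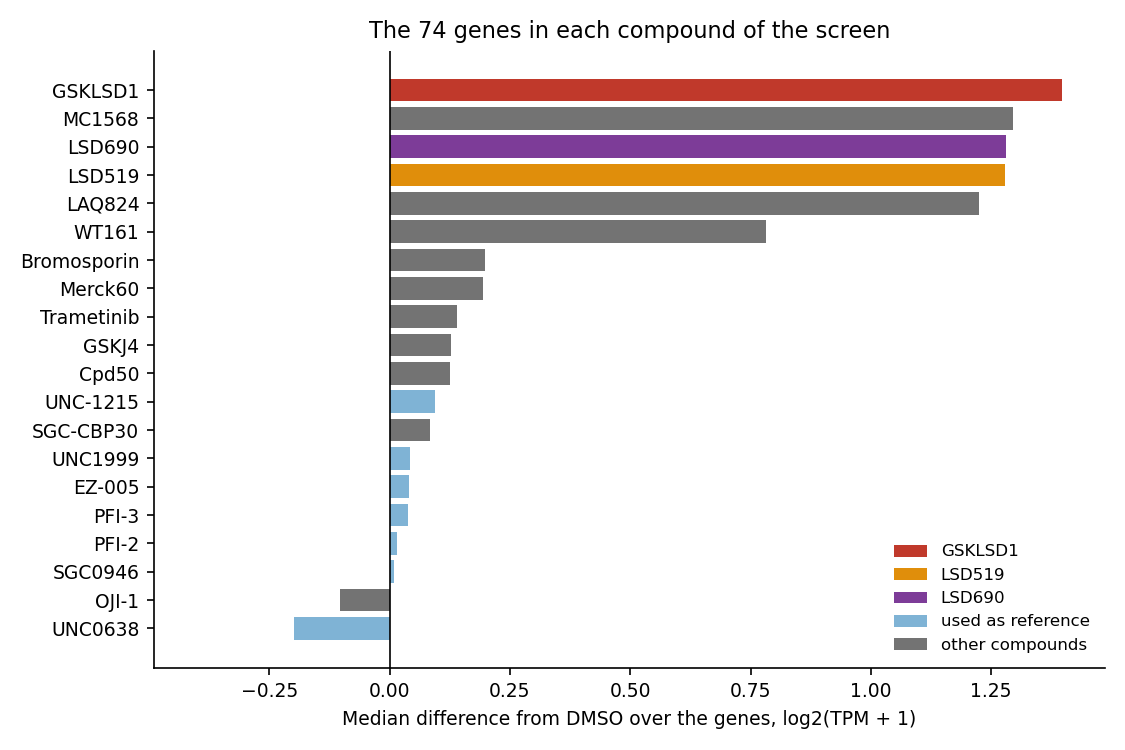
Median log2 difference from DMSO of the 74 genes for each compound of the screen. The LSD1 inhibitors lie at 1.28 to 1.40, beside MC1568 at 1.296 and LAQ824 at 1.22, and Merck60 lies at 0.19.

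KDM1A, the target, was at 235 and 254 TPM with GSKLSD1, 262 and 254 TPM with LSD519, and 254 and 264 TPM with LSD690, against 252 to 259 TPM in DMSO. The groups overlapped, and the difference was -0.01 ± 0.04 (95% interval -0.11 to 0.09, limma adjusted p = 0.91). Of 14 genes of LSD1 and its complex 2 rose against DMSO and 0 fell, where 9.94% of all genes rose and 3.55% fell. GSE1, a complex subunit, ranged from 56.3 to 71.5 TPM against 39.5 to 41.5 TPM in DMSO, a difference of 0.57 ± 0.07 (adjusted p = 0.0027), and 0.64 ± 0.07 within flow cells. ZNF217, a zinc-finger factor found with the complex, differed by 0.27 from DMSO (adjusted p = 0.014) and by 0.01 within flow cells. The median of the 14 was 0.09, beside 0.07 for all genes tested. Of 5 tested flavin amine oxidases, KDM1A included, none was called in either comparison by limma.

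Of 6 tested factors that bring LSD1 to DNA 3 rose against DMSO, where 9.94% of all genes did, and 3 of 5 within flow cells, where 7.94% did. SNAI1, the Snail repressor, stood at 311 and 273 TPM with GSKLSD1, 304 and 327 TPM with LSD519, and 359 and 291 TPM with LSD690, against 160, 148, 148 and 142 TPM in DMSO. These groups did not overlap, and the difference was 1.05 ± 0.09 (adjusted p = 0.00078), or 1.33 ± 0.15 within flow cells. SNAI2, its paralog Slug, ranged from 250.2 to 288 TPM against 178 to 197 TPM, a difference of 0.53 ± 0.04, and 0.41 ± 0.07 within flow cells, where UNC0638 reached 301 TPM. INSM1, a neuroendocrine repressor, ranged from 12.2 to 19.3 TPM against 9.79 to 10.97 TPM, a difference of 0.56 in both comparisons. With GSKLSD1 alone its difference from DMSO was 0.25 (limma adjusted p = 0.14), beside 0.63 and 0.79 with LSD519 and LSD690.

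Of the 6 core regulatory transcription factors 0 were called higher than DMSO and 2 lower, where 3.55% of all genes were lower. Both lower calls, MYOD1 and FOXF1, were lost with all 44 screen samples in the fit (adjusted p = 0.37 and 0.67). MYOD1, a master regulator of myogenesis, stood at 517 and 466 TPM with GSKLSD1, 533 and 545 TPM with LSD519, and 452 and 484 TPM with LSD690, against 640 to 648 TPM in DMSO. It differed from DMSO by -0.37 ± 0.05 (adjusted p = 0.0054), but within flow cells the difference was 0.15 ± 0.09 (adjusted p = 0.39), with 221 to 592 TPM in the references. FOXF1 differed by -0.28 from DMSO and -0.13 within flow cells. SOX8 differed by 0.03 from DMSO and was higher by 0.36 within flow cells. MYOG, MYCN and PAX3 differed by -0.03, 0.11 and 0.01 from DMSO and passed neither test, and the PAX3 value cannot separate the gene from the fusion.

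**Figure D3:**
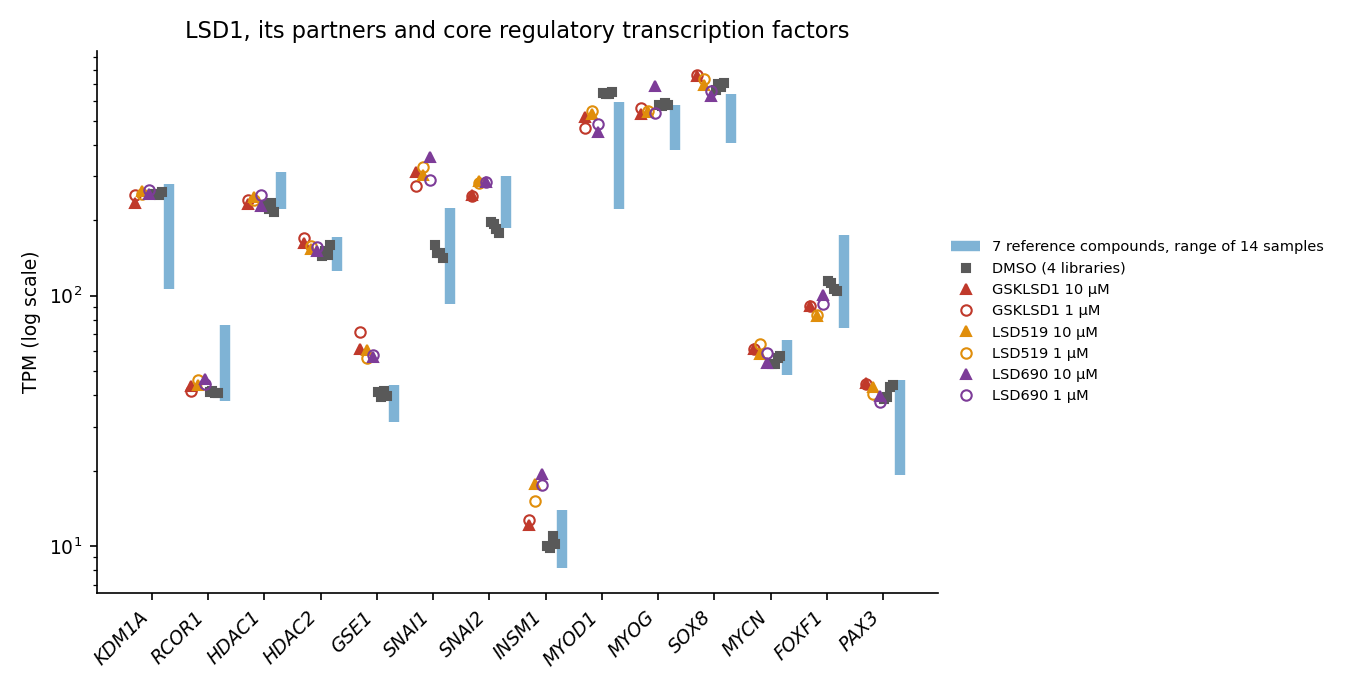
TPM on a log axis of LSD1, its partners, SNAG-domain factors and core regulatory transcription factors, with 1 point per inhibitor sample and DMSO library and a bar for the range of the 14 references. KDM1A points lie between 235 and 264 TPM beside DMSO at 252 to 259 TPM, SNAI1 points lie above both references, and MYOD1 points lie below DMSO within the reference bar.

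Other lists moved in few members, to be read beside 9.94% higher and 3.55% lower for all genes against DMSO and 7.94% and 1.09% within flow cells. Of 19 tested muscle differentiation genes 4 rose and 3 fell against DMSO, and 4 of 20 rose within flow cells with 0 lower. CHRND, a subunit of the muscle acetylcholine receptor, ranged from 146 to 177 TPM against 93.7 to 109 TPM, a difference of 0.69 in both comparisons. TNNT2, cardiac troponin T, differed by 0.40 and 0.56, and TMEM8C, the fusogen myomaker, by 0.50 and 0.67. MYL4 and TNNT1, a myosin light chain and slow troponin T, fell by 0.33 and 0.21 from DMSO and passed no test within flow cells. Among FP-RMS markers 2 of 9 rose, 2 fell against DMSO and 1 rose within flow cells, with NOS1, a nitric oxide synthase, at 0.84 and 0.56. PIPOX also rose against DMSO, and MYOD1 and ALK fell. Taken by compound, ALK differed from DMSO by -0.16 with GSKLSD1, -0.22 with LSD519 and -0.30 with LSD690, and was called with LSD690 only.

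DUSP4, a phosphatase that restrains ERK signalling, rose by 0.87 and by 0.58 within flow cells, and with SPRED2 it made 2 of 11 ERK feedback genes called higher than DMSO, again beside 9.94% of all genes. In the oxidative stress list 2 of 8 rose against DMSO and 3 within flow cells, with TXNRD1, thioredoxin reductase, at 0.40 and 0.45. With GSKLSD1 alone 0 of the list rose and 2 fell against DMSO, where 2142 of all 14405 genes rose and 482 fell. NQO1 fell with GSKLSD1 (-0.44, limma adjusted p = 0.0087), and TXNRD1 was not called with it (0.22, adjusted p = 0.064). Of 9 p53 targets 3 rose against DMSO, MDM2, BTG2 and CDKN1A, and 0 within flow cells. Taken by compound, BTG2 and CDKN1A were called against DMSO with LSD690 (0.60 and 0.48) and not with GSKLSD1 (0.22 and 0.21) or LSD519 (0.31 and 0.25). Of 14 stress genes of ATF4 and the unfolded protein response 2 rose against DMSO, PSAT1 and XBP1, and 0 within flow cells. Of 9 immediate early genes 2 fell against DMSO, JUN and MYC, and 0 within flow cells.

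Of 4 tested genes that respond to LSD1 inhibitors in other tumours 1 rose, the receptor NOTCH1 (0.28, and 0.43 within flow cells). This was not shared, since NOTCH1 differed from DMSO by 0.70 with GSKLSD1, 0.16 (adjusted p = 0.23) with LSD519 and -0.03 (adjusted p = 0.79) with LSD690. Of 5 tested neuronal genes repressed through REST and CoREST none was called against DMSO for the 3 compounds together. Within flow cells L1CAM rose by 0.27 and SCG2 fell by 0.56, where 7.94% and 1.09% of all genes did. Against DMSO, however, SCG2 was higher with GSKLSD1 alone (0.97, limma adjusted p = 0.018), beside -0.14 with LSD519 and 0.36 with LSD690. TUBB3 was lower than DMSO with LSD690 alone (-0.44, limma adjusted p = 0.026), beside -0.23 with GSKLSD1 and 0.04 with LSD519. Of 14 cholesterol synthesis genes, 25 writers and erasers of histone methylation, 8 heat shock genes and 2 metallothioneins none was called against DMSO for the 3 compounds together by limma. The cholesterol genes, a list without TM7SF2, had a median difference of 0.37 from DMSO and -0.08 within flow cells. The medians over all genes were 0.07 and 0.04. With LSD690 alone 1 cholesterol gene, CYP51A1, was called higher than DMSO (0.47, limma adjusted p = 0.049). Within flow cells HSPB1 and MT2A were called higher. With GSKLSD1 alone, however, HSPB1 was lower than DMSO (-0.29, limma adjusted p = 0.045), beside 0.02 and -0.06 with LSD519 and LSD690. Of the methylation genes 3 rose with GSKLSD1, and 1 rose and 2 fell with LSD690. Of all 14405 genes 2142 rose and 482 fell with GSKLSD1, and 1202 rose and 870 fell with LSD690.

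Decreases were smaller and mostly did not recur within flow cells. Of the 10 largest, 1 passed both tests. DACT3, called with GSKLSD1 and LSD519 but not with LSD690 (-0.44, adjusted p = 0.10) when taken alone, is an antagonist of Wnt signalling. It stood at 6.17 and 5.78 TPM with GSKLSD1, 7.002 and 8.09 TPM with LSD519, and 11.2 and 8.23 TPM with LSD690, against 16.2, 12.8, 11.5 and 13.5 TPM in DMSO. It did not overlap DMSO and differed by -0.75 ± 0.13 (limma adjusted p = 0.011), or by -0.73 ± 0.09 within flow cells (adjusted p = 0.00017). DLX1, a homeobox factor, and ATP2A1, the calcium pump of fast muscle, fell by 0.55 and 0.53 from DMSO and by 0.41 each within flow cells. ZNF593, POLR2F and C12orf57 completed the 6 largest decreases passed by both tests.

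ATP5E, a subunit of the mitochondrial ATP synthase, had the largest decrease, -1.87 ± 0.06, with an SE that leaves out the spread between the DMSO flow cells. Its DMSO libraries stood at 200.4 and 204 TPM on 1 flow cell and 538 and 544 TPM on the other, its inhibitor samples at 70.3 to 116 TPM, and the references at 46.7 to 122 TPM. Within flow cells the difference was -0.12 ± 0.11 (adjusted p = 0.66). NME2, a nucleoside diphosphate kinase whose reads may be shared with a neighbouring readthrough gene, likewise stood at 5.19 and 4.03 TPM on the first DMSO flow cell and 21.4 and 19.98 TPM on the other. Its difference was -1.12 from DMSO and -0.23 within flow cells. RPS10, ROMO1, DNLZ, VAMP5, PDLIM4, SMAD6 and ANGPTL2 differed by -0.96 to -0.60 from DMSO and by -0.32 to -0.11 within flow cells.

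**Figure D4:**
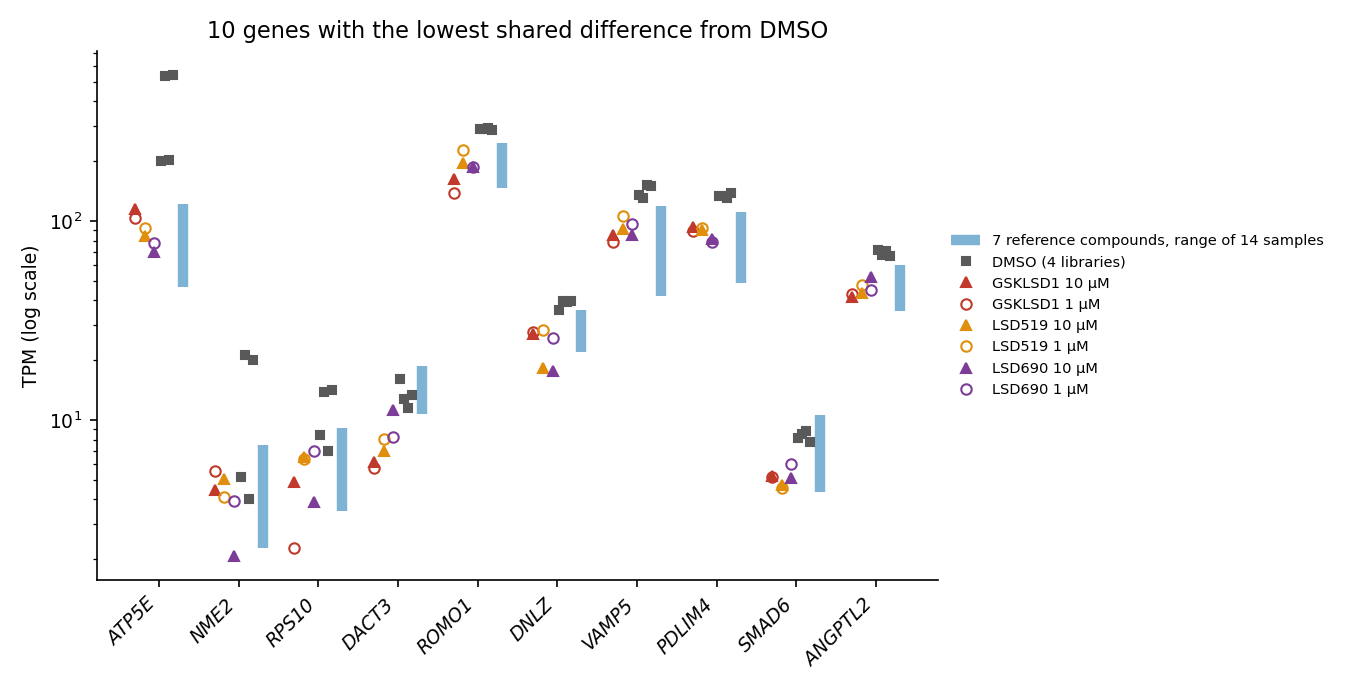
TPM on a log axis of the 10 genes with the largest shared decrease, drawn as for the increases. DACT3 points lie at 5.78 to 11.2 TPM below DMSO at 11.5 to 16.2 TPM, and the ATP5E points lie within the reference bar while its DMSO libraries form 2 levels.

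Against DMSO each compound taken alone gave 2624 calls for GSKLSD1 (18.2%), 711 for LSD519 (4.94%) and 2072 for LSD690 (14.4%), and within flow cells 131 (0.878%), 586 (3.93%) and 587 (3.93%). These comparisons share their DMSO libraries, LSD519 and LSD690 also share references, and GSKLSD1 had only the 2 UNC-1215 samples beside it. GSKLSD1 at 1 µM, when left out, took its count against DMSO to 507. Without LSD519 at 10 or 1 µM the LSD519 count was 174 or 172, and without LSD690 at 10 or 1 µM it was 1249 or 1255. The LSD690 count was 1027 without its 10 µM sample and 3259 without its 1 µM sample.

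The compounds were compared in 3 pairs over both doses, with p-values adjusted jointly over the pairs and all genes. GSKLSD1 differed from LSD519 at 505 genes (3.51%) and from LSD690 at 940 (6.53%), both across flow cells, whereas LSD690 and LSD519, which shared a flow cell, differed at 86 (0.597%). Set first against the references of their own flow cell, GSKLSD1 differed from LSD519 and from LSD690 at 0 genes by limma, with 572 and 516 genes under 0.05 before adjustment. Without GSKLSD1 at 1 µM all 3 counts were 0, with 1879, 2749 and 1834 under 0.05 before adjustment. The 3 counts were 17, 63 and 18 without LSD519 at 10 µM, 15, 62 and 21 without LSD519 at 1 µM, and 11, 10 and 4 without LSD690 at 10 µM, and the last was 368 without LSD690 at 1 µM.

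Between compounds 2, 3 and 0 of the 74 genes were called in the 3 pairs, beside the shares of all genes just given. For SYNGR2 GSKLSD1 differed from LSD519 by 0.00 (95% interval -0.27 to 0.26) and from LSD690 by -0.01 (-0.28 to 0.26), and LSD690 from LSD519 by 0.01 (-0.26 to 0.28). For TPD52 the same differences were 0.22 (-0.15 to 0.60), 0.10 (-0.27 to 0.47) and 0.12 (-0.25 to 0.50). For SNAI1 they were -0.11 (-0.34 to 0.11), -0.15 (-0.37 to 0.08) and 0.04 (-0.19 to 0.26). The interval lay within 1 log2 unit on either side of 0 for 64, 66 and 71 of the 74 genes (86.5%, 89.2% and 95.9%) and for 86.8%, 86.5% and 90.4% of all genes tested, and the median interval reached 0.33 to either side. VWA5B2 and NEU4 passed the test for both GSKLSD1 pairs and MAP3K7CL for the pair with LSD690.

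VWA5B2 stood at 14.9 and 18.8 TPM with GSKLSD1, 7.33 and 8.27 TPM with LSD519, and 9.20 and 9.37 TPM with LSD690. GSKLSD1 was thus higher than LSD519 by 1.02 (0.72 to 1.32, adjusted p = 0.023) and than LSD690 by 0.79 (0.49 to 1.09, adjusted p = 0.033). Through the references of each flow cell these differences were 0.72 (0.20 to 1.25) and 0.50 (-0.03 to 1.02), and neither was called. NEU4, a sialidase, stood at 21.1 and 26.7 TPM with GSKLSD1, 12.8 and 9.30 TPM with LSD519, and 8.53 and 7.56 TPM with LSD690, while UNC-1215 on the flow cell of GSKLSD1 gave 8.89 and 9.82 TPM against 3.42 to 4.04 TPM in DMSO. GSKLSD1 was higher by 1.06 (0.63 to 1.49) and 1.45 (1.03 to 1.88), and through the references by 0.01 (-1.44 to 1.46) and 0.40 (-1.05 to 1.86). NOTCH1 stood at 97.4 and 107 TPM with GSKLSD1 and 60.8 to 70.7 TPM with the other 2 compounds, and was higher by 0.54 and 0.73, or through the references by 0.06 and 0.25, which were not called.

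Several large differences of GSKLSD1 were shared with UNC-1215 on its flow cell. IGF2, the insulin-like growth factor, stood at 52.7 and 51.8 TPM with GSKLSD1, at 44.4 to 55.9 TPM with UNC-1215 and at 95.9 to 119 TPM with LSD519 and LSD690. It differed by -1.02 in both pairs, and DMSO itself stood at 124 and 130 TPM on 1 flow cell and 67.8 and 69.1 TPM on the other. THBS1, thrombospondin, stood at 59.1 and 63.7 TPM with GSKLSD1 and at 46.3 and 49.8 TPM with UNC-1215, against 17.4 to 27.2 TPM with the other 2 compounds.

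LSD690 differed from LSD519 in few genes. ZFP36, an mRNA decay factor, stood at 5.79 and 6.82 TPM with LSD690 against 12.3 and 11.3 TPM with LSD519, a difference of -0.81 (-1.10 to -0.52, adjusted p = 0.03). PET117, a cytochrome oxidase assembly factor, stood at 3.43 and 4.32 TPM against 7.08 and 8.53 TPM, a difference of -0.85 (-1.18 to -0.53). MYC stood at 37.6 and 46.1 TPM with LSD690 against 54.1 and 61.5 TPM with LSD519, a difference of -0.46 (-0.65 to -0.27, adjusted p = 0.039). The labels give no structure for these compounds, so no structural change is named.

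The 10-fold step in dose was not resolved. Between 10 and 1 µM across the 3 compounds limma called 0 of 14405 genes (0%), the lowest adjusted p was 0.21, and 433 genes fell under 0.05 before adjustment. Over the 74 genes the median difference between doses was -0.04, 27 were higher at 10 µM and the range was -0.46 to 0.56, and the median 95% interval reached 0.31 to either side. SYNGR2 differed by 0.10 (-0.13 to 0.32), SLAIN1 by 0.16 (-0.13 to 0.45) and TPD52 by -0.03 (-0.37 to 0.30). The DMSO concentrations likewise gave 0 calls (0%), with 1184 genes at an unadjusted p below 0.05.

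**Figure D5:**
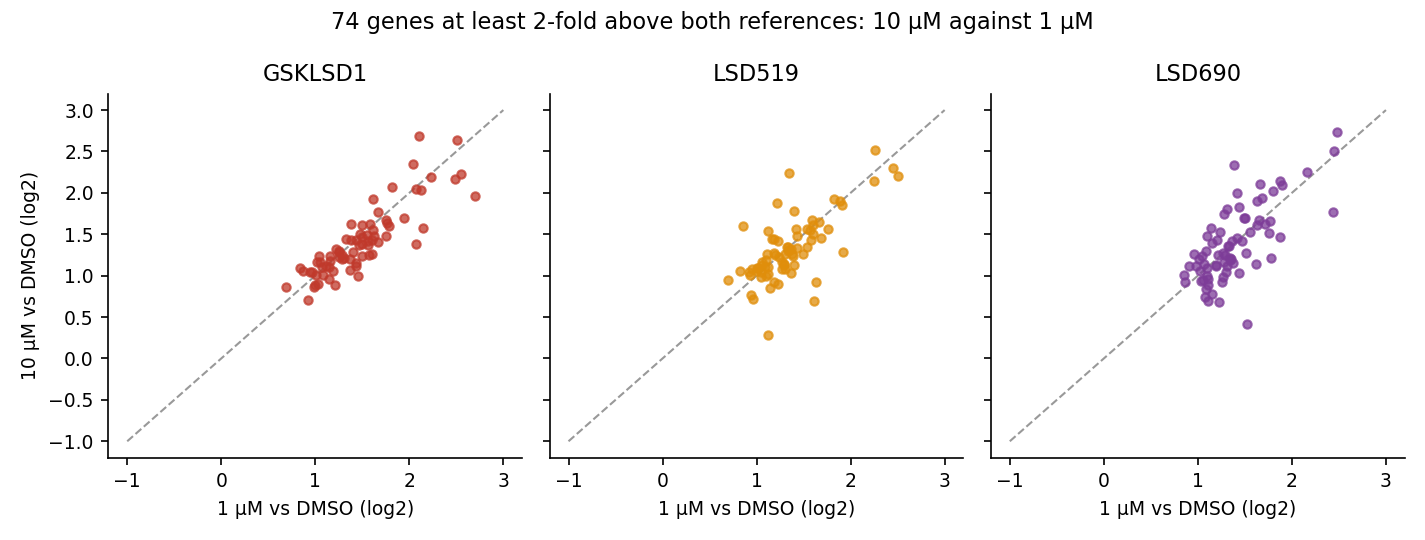
Log2 difference from DMSO at 10 µM against that at 1 µM for the 74 genes, 1 panel per compound, with a dashed line at equality. Points lie along the line in every panel, and the median difference between doses over the 3 compounds was -0.04.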

How the data were processed

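RNA-seq of poly-A RNA was analysed from 6 LSD1 inhibitor samples, 4 DMSO libraries and 14 reference samples. The authors deposited 1 table per sample of TPM for 27043 genes (hg19), made per their methods with STAR and RSEM. The submitters' processing notes name STAR and edgeR. Whole reads worked out from the TPM values gave the depths. Libraries of fewer reads carry more counting error at low TPM. A gene was kept with TPM of at least 1 in at least 2 samples, and log2(TPM + 1) was tested with limma 3.58.1 (R 4.3.3; moderated with a trend, Benjamini-Hochberg adjusted p below 0.05). The 2 libraries of a DMSO concentration, which lie on different flow cells, were averaged first. Scripts were tested on simulated data. Named genes were all complex and core factor genes, the 10 highest and 10 lowest shared calls at a mean of at least 5 TPM, the 4 highest and lowest of the other comparisons, the 6 highest and lowest of both references, and called members of the other lists. The members and lists were chosen with earlier results of these data known. Alternatives changed the pseudocount (0.1), scaling, filter, fold, DMSO handling, dose term, model and left-out samples. The 8 samples titled RH4 and the authors' other tables were not used. A few genes and 1 gene list that the rule names are not reported here.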

Additional observations from a re-analysis of the deposited data

Results flagged for a closer look

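Among the 6 inhibitor samples, 5 of 40 named genes tested had a sample standing apart from the others in TPM. Chance flags about 1 in 20 among like samples. These 6 differ in compound, dose, flow cell and depth, so nothing is read from the count. CRACR2B reached 26.3 TPM in GSKLSD1 at 1 µM with the others from 10.1 TPM up. TM7SF2 reached 44.1 TPM in LSD690 at 10 µM. KDM1A was lowest, 235 TPM, in GSKLSD1 at 10 µM. GSE1 reached 71.5 TPM in GSKLSD1 at 1 µM. MYOG reached 690.4 TPM in LSD690 at 10 µM, with the lowest at 532 TPM.

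The difference between compounds was larger than the spread between doses for 2 of the genes with the largest shared changes. VWA5B2 was higher with GSKLSD1 than with LSD519 by 1.02 (log2, limma adjusted p = 0.023) and than with LSD690 by 0.79 (adjusted p = 0.033). ATP5E was higher with GSKLSD1 than with LSD690 by 0.56 (adjusted p = 0.028). The flow cells differ in these comparisons. With each compound first set against the references of its own flow cell, the VWA5B2 differences were 0.72 and 0.50 and the ATP5E difference was 0.25, and limma called none of them.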

How the results depend on the processing

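The 2 doses of a compound are its only replicates, so all counts of calls rest on few samples. Counts below are for the 3 inhibitors, then GSKLSD1, LSD519 and LSD690 alone, against DMSO. Requiring 2-fold gave 125, 253, 108 and 159; treating the 4 DMSO libraries as separate gave 4937, 4977, 2270 and 4331; fitting all 44 samples gave 1123, 1314, 285 and 687. Without a filter GSKLSD1 gave 1671 and LSD690 1362. Voom weights on whole reads gave 3616 for the group, 51.2% of them higher. Scaling by median ratios gave 1934, of which 54.4% were higher against 73.7% before; the share fell from 81.6% to 59.0% for GSKLSD1, from 79.9% to 68.6% for LSD519, from 58.0% to 45.3% for LSD690, from 78.8% to 66.1% for GSKLSD1 against LSD519 and from 88.0% to 75.8% within flow cells. The cause was not tested.

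For GSKLSD1 against LSD519, GSKLSD1 against LSD690 and LSD690 against LSD519, no filter gave 33, 62 and 5 calls, and 2-fold gave 102, 134 and 37. Through the references both GSKLSD1 pairs gave 0. Within flow cells 2-fold gave 104. Leaving out samples in turn gave 1275 to 3122 for the group, 507 to 3542 for GSKLSD1, 172 to 1255 for LSD519, 1027 to 3259 for LSD690, 0 to 673, 0 to 939 and 0 to 368 for the pairs, 798 to 2529 within flow cells and 529 to 821 for calls in both; the dose step stayed at 0 in each. Adding the DMSO library numbers as a replicate block gave 0 calls between the concentrations, and 1737 at an unadjusted p below 0.05, against 0 and 1184 without it. Of 800 values of named genes under alternatives, 770 kept their direction and call, 22 lost the call (RPS10, NME2, DNLZ, ZNF217, MYOD1 and FOXF1), 8 gained it and 0 reversed.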
